A study of Homo sapiens with 6 samples.

Results

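The genes described here are chromatin-modifying enzymes and remodelers, 93 of the 14812 genes tested on the arrays. They were chosen by symbol, from 14 patterns for the lysine demethylases (KDM), lysine methyltransferases (KMT, SETD and EZH), lysine acetyltransferases (KAT), histone deacetylases (HDAC), sirtuins (SIRT), arginine methyltransferases (PRMT), DNA methyltransferases (DNMT), TET dioxygenases, bromodomain proteins (BRD), CHD remodelers, SMARC proteins and ARID proteins. Antisense and other noncoding symbols were left out, and each gene was read from its brightest probe set over the 6 arrays. The patterns matched 118 protein-coding genes of the reference gene table, and 25 of them, among others all SMARC genes, *KMT2A*, *KAT6A*, *BRD9*, *ARID2* and *TET3*, were not analysed here because no probe set used here carried their symbol.

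UM-Cis was derived from UMSCC1, an oral squamous cell carcinoma line established earlier, by exposure over approximately 12 months to cisplatin raised stepwise from 1 to 5 μg/mL. Both lines were grown in the same medium, and RNA was prepared from cells that were not in cisplatin at the time. Affymetrix Human Gene 2.0 ST arrays, 3 for each line, measured the RNA, and within a line 1 array is labelled without a number and the others 1 and 2. Values are given below in the order no number, 1, 2, as normalized log2 signals, and every difference is UM-Cis minus UMSCC1.

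UM-Cis is a single selected line, so its selection and any other history that sets it apart from UMSCC1 cannot be told apart. The study also kept a vehicle-treated parental line in parallel culture, and does not state whether the UMSCC1 arrays came from it. No source states that the triplicates came from separate cultures, and the p-values therefore describe only the spread among these arrays. The median of an array lay between 4.74 and 4.82. Of 9 measured squamous epithelial markers, 8 had a mean over all 6 arrays above that level, and 1 of the 9 differences lay above 0. The basal keratin gene *KRT5* fell by 1.94 in UM-Cis (adjusted p = 0.0091 with limma), to a mean of 4.68, under the median of every array. *KRT14* (-0.92, adjusted p = 0.0588) did not pass. With the array label as a block 3 of the markers passed as lower, *KRT14* and *S100A2* among them. Of the 3 measured fibroblast markers, *DCN* (2.22 in UM-Cis and 2.07 in UMSCC1) and *LUM* (3.01 in UM-Cis and 2.91 in UMSCC1) were under the median of every array, and *VIM* (5.97 in UM-Cis and 5.99 in UMSCC1), which many cultured cells express, was above it. Of 4 leukocyte and endothelial markers *CD68*, a lysosomal protein gene, rose by 1.41 and *CD14* fell by 0.53 (adjusted p = 0.0115 and 0.049). *CD68* lost the call when 1 of the 6 arrays was dropped (0.0547), and *CD14* lost it when any of the 6 was dropped (reaching 0.161) and with arrays set to equal control genes (0.595). The array gave no detection calls, so how far a signal stood above background is unknown, and precision is limited by having 3 arrays a line. In RNA from a whole culture, fewer cells expressing a gene and less RNA per cell cannot be told apart.

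Histone tails receive acetyl or methyl groups from enzymes called writers, lose them to deacetylases and demethylases called erasers, and are bound by readers such as bromodomain proteins. Remodelers use ATP to slide, evict or exchange nucleosomes. DNA methyltransferases place methyl groups on cytosines in CpG sequences, and TET dioxygenases oxidize them as a step toward their removal. Several of these genes are mutated in squamous carcinomas of the head and neck, the histone methyltransferase gene *KMT2D* being a well-known example.

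Promoter sequence is shown for *KDM1B*, *EZH1* and *KDM7A*, the members that changed at least 2-fold and have 1 start in the RefSeq promoter table of GRCh38.p14. Each sequence holds the 250 bases before the start, on the strand of the gene, and capitals mark letters found by a search of both strands for 6 short motifs. They were the E-box of basic helix-loop-helix factors, CACGTG, and the GC box of Sp factors, GGGCGG. The motif of the factor NF-Y was written CCAAT, and that of the TATA-binding protein was written TATAAA. The centre of the NRF1 sequence was written CGCATGCG, and the cyclic AMP response element was searched as TGACGTCA.
*KDM1B* (chr6:18155172-18155421, plus strand): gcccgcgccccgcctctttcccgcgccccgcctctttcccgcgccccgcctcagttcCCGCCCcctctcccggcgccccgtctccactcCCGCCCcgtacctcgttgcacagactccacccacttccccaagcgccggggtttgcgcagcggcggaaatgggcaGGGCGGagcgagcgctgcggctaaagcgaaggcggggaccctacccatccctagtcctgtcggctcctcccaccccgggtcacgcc
*EZH1* (chr17:42745041-42745290, minus strand): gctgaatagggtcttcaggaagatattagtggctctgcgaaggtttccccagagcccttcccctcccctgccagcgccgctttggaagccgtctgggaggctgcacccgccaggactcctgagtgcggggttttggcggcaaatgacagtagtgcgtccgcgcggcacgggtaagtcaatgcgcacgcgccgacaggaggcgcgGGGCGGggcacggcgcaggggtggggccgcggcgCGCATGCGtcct
*KDM7A* (chr7:140176984-140177233, minus strand): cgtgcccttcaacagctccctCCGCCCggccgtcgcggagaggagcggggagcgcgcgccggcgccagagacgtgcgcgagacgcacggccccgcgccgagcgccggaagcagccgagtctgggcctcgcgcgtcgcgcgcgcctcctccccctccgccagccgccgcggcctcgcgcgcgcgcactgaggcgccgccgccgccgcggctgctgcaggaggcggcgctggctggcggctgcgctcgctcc
The *KDM1B* window held 3 GC boxes and 30 CpG, that of *EZH1* held 1 GC box, 1 NRF1 centre and 26 CpG, and that of *KDM7A* held 1 GC box and 50 CpG. Over all 35116 starts of the table the median was 11 CpG, and over the 132 starts of members it was 22. A GC box stood in 42.6% of all windows and in 60.6% of those of members, an NRF1 centre in 1.73% and 2.27%, an E-box in 6.34% and 10.6%, the NF-Y motif in 32.0% and 30.3%, the motif of the TATA-binding protein in 10.7% and 2.27%, and a cyclic AMP response element in 1.65% and 0.758%. *KDM1B* fell and *EZH1* and *KDM7A* rose, so that GC-rich windows with GC boxes were found on both sides of the change. These matches describe letters in a window and not binding.

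Most chromatin enzymes and remodelers had similar signals in UM-Cis and UMSCC1, and 8 of 93 passed the test. With limma and Benjamini-Hochberg adjustment over all 14812 genes (adjusted p under 0.05), the demethylase gene *KDM7A*, the DNA-binding ARID gene *ARID5B*, the deacetylase gene *HDAC9*, the Polycomb methyltransferase gene *EZH1* and the arginine methyltransferase gene *PRMT9* rose in UM-Cis. The demethylase gene *KDM1B*, the dioxygenase gene *TET1* and the arginine methyltransferase gene *PRMT1* fell. The 5 increases were 5.38% of members, against 5.91% of all genes, and the 3 decreases were 3.23%, against 4.6% of all genes, so that the members passed about as often as genes on the array in general. Counting changes of 2-fold or more with p under 0.05 before adjustment, 4 members were higher (4.3%, against 2.44% of all genes) and 1 was lower (1.08%, against 1.7%). The same 8 genes include all 5 that reached 2-fold.

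The remaining 85 members did not pass. The 95% interval of the difference lay inside 2-fold in both directions for 78 of the 93 members (83.9%, against 84.3% of all genes). The differences had a median of -0.09 over members and -0.04 over all genes, with 37 members above 0 and 56 below. This split depended on the scaling. With arrays set to an equal median of 6 housekeeping control genes, a scaling that moved the median of all genes to 0.20, 61 members were above 0 and 32 below. The groups did not overlap in 35 members (37.6%, against 30.4% of all genes), 11 of them higher in UM-Cis and 24 lower. That split by direction was not computed over all genes or after rescaling, so no tilt of the members is read from it. For 4 members, *KDM4E*, *PRMT8* and *SIRT4* among them, the means of both lines lay under the median of every array.

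**Figure D1:**
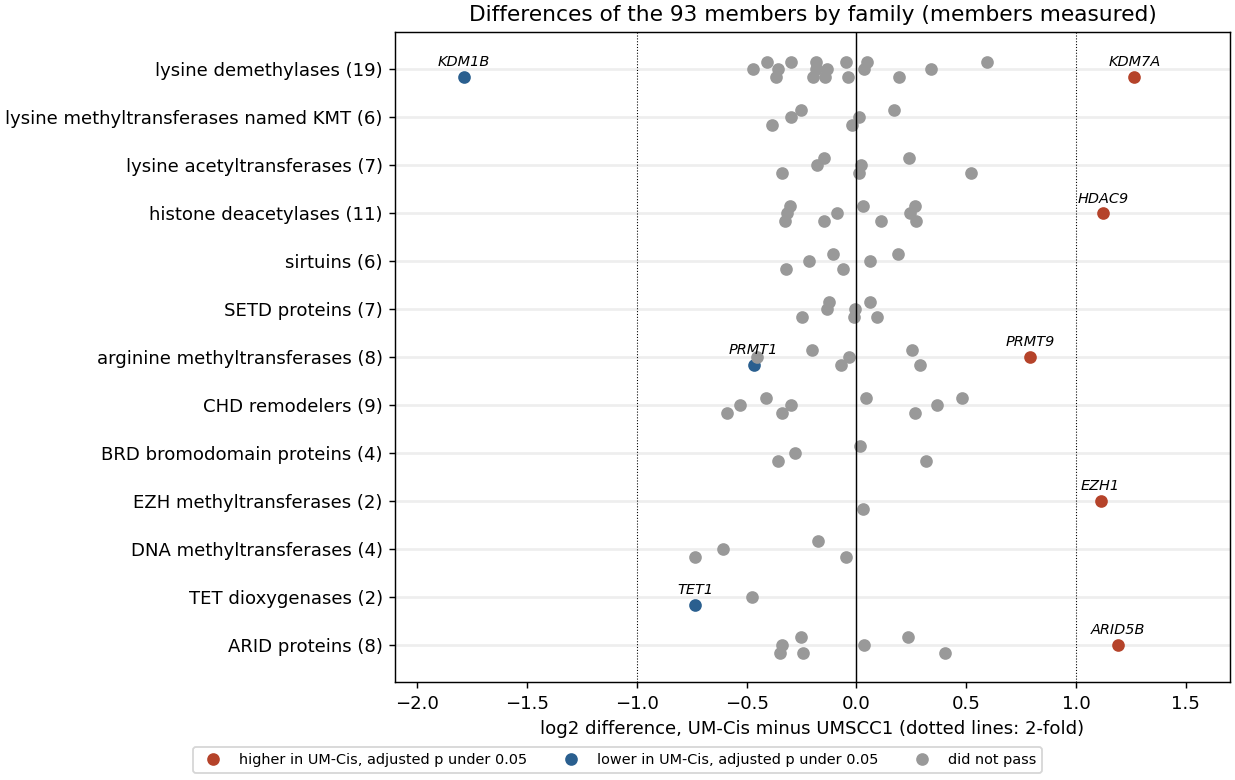
Log2 difference of each of the 93 members (x axis, UM-Cis minus UMSCC1) by family (y axis, number measured in parentheses). Each point is a gene, coloured by its call with limma, and the dotted lines stand at 2-fold. Most points lie between the dotted lines, with *KDM1B* at -1.79 and *KDM7A* at 1.27 as the ends of the range.

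Among the erasers, the lysine demethylases were the largest family, with 19 genes measured, and held both the largest decrease and the largest increase. *KDM1B* encodes a flavin-dependent demethylase of histone H3 that is needed in mouse oocytes for setting maternal imprints. Its log2 signal was 5.83, 5.25 and 5.29 on the UM-Cis arrays, against 7.45, 7.08 and 7.20 on the UMSCC1 arrays. Every UM-Cis array was at least 1 log2 unit under every UMSCC1 array. The difference was -1.79 ± 0.19 (SE; 95% interval -2.22 to -1.35), a 3.45-fold lower signal in UM-Cis (adjusted p = 0.00137 with limma). Its close relative *KDM1A*, the flavin-dependent demethylase found in corepressor complexes with RCOR1, had 9.48 ± 0.05 in UM-Cis and 9.44 ± 0.02 in UMSCC1 (SD, n = 3 each), with an interval of the difference of -0.23 to 0.31.

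*KDM7A* encodes a PHD finger and Jumonji demethylase of repressive methylation on histone H3. It was measured at 5.79, 5.84 and 5.68 in UM-Cis, against 4.81, 4.12 and 4.58 in UMSCC1. The lowest UM-Cis array was above the highest UMSCC1 array, and the SD was 0.08 in UM-Cis and 0.35 in UMSCC1 (n = 3 each). The UMSCC1 mean, 4.50, was under the median of every array. The gene was 2.41-fold higher in UM-Cis (difference 1.27 ± 0.19, SE; adjusted p = 0.0049 with limma). Under the methods' t-test, the unpaired test that the study lists among its general statistics, it did not pass after the same adjustment (adjusted p = 0.0626). The remaining 17 demethylases did not pass, with differences from -0.47 to 0.60. Next in size was *KDM4D*, a Jumonji demethylase of histone H3, at a difference of 0.60 (adjusted p = 0.0806). The histone H3 demethylase genes *KDM5A* and *KDM5B* had -0.36 and -0.41 (adjusted p = 0.0919 and 0.176), and *KDM6A* and *KDM6B*, which encode erasers of the Polycomb mark, had 0.19 and 0.05. With the methods' t-test *KDM5A* passed as lower (adjusted p = 0.0194), and with limma on arrays set to equal control genes it did not (0.848). Over the family 13 of 19 differences lay below 0, but 6 of 19 did with arrays set to equal control genes.

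Of 11 deacetylase genes, only *HDAC9* passed with limma, and *HDAC8* (-0.31) passed as lower with the methods' t-test alone (adjusted p = 0.03). HDAC9 is a class IIa deacetylase that binds MEF2 transcription factors and acts largely as a platform for corepressors. Its arrays read 6.84, 6.79 and 6.83 in UM-Cis, against 5.63, 5.77 and 5.68 in UMSCC1, with no overlap of the groups. The signal was 2.18-fold higher in UM-Cis, with a difference of 1.12 ± 0.12 (SE) and an adjusted p of 0.00139 with limma. The class I genes, whose products carry most deacetylase activity of corepressor complexes, did not pass, with differences of -0.09 for *HDAC1* (-0.40 to 0.22), 0.24 for *HDAC2* and 0.27 for *HDAC3*. *HDAC4* and *HDAC5*, class IIa relatives of *HDAC9*, were at -0.32 and 0.11, within a range of -0.32 to 0.27 over the 10 genes that did not pass, and the other probe set of *HDAC4* was at -0.03. None of 6 sirtuin genes, which encode NAD-dependent deacylases, passed (range -0.32 to 0.19), with *SIRT1* at -0.06 (-0.34 to 0.22) and *SIRT6* at -0.22. The lowest, *SIRT7*, passed with the methods' t-test alone (adjusted p = 0.0465).

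**Figure D2:**
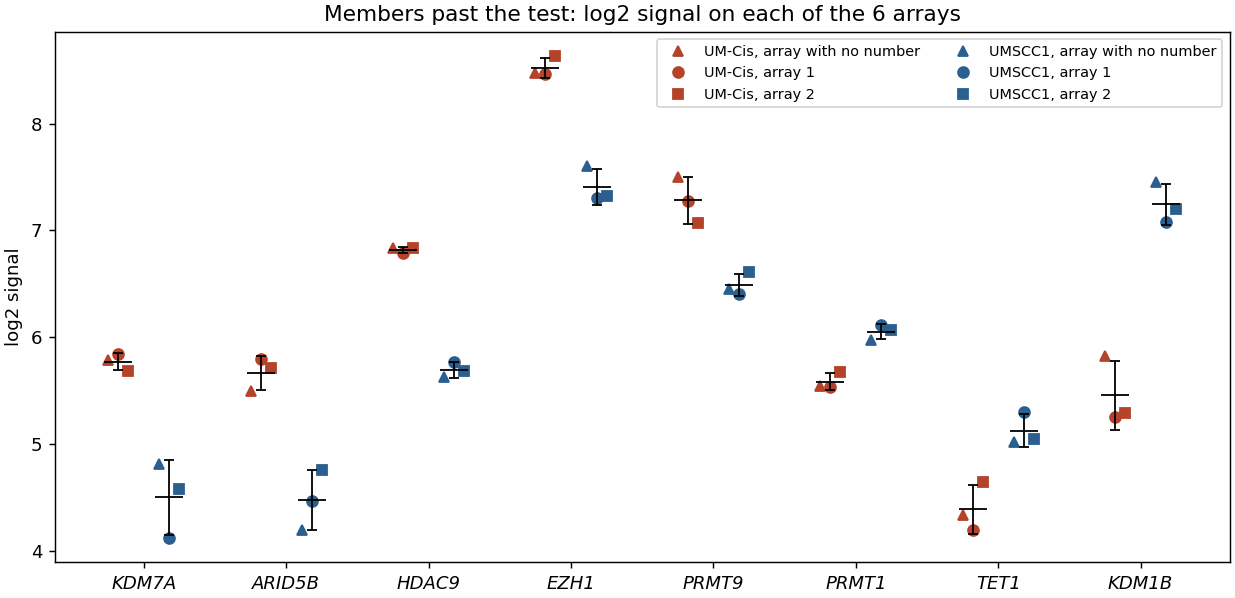
Log2 signal (y axis) of the 8 members that passed on each array, UM-Cis left of UMSCC1 for each gene, with the group mean as a line, the SD as bars (n = 3 each) and marker shapes for the array labels. The groups are apart in all 8 genes, by the widest margin in *KDM1B*.

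Among the writers, the change was in the Polycomb and arginine methyltransferases. EZH1 and EZH2 are the alternative catalytic subunits of Polycomb repressive complex PRC2, EZH2 being the form of dividing cells. *EZH1* was at 8.47, 8.46 and 8.63 in UM-Cis, against 7.60, 7.30 and 7.33 in UMSCC1, with no overlap of the groups. The difference was 1.11 ± 0.14 (SE), a 2.16-fold higher signal in UM-Cis (adjusted p = 0.00242 with limma). *EZH2* was at 8.50, 8.54 and 8.81 in UM-Cis and 8.58, 8.53 and 8.66 in UMSCC1, and its difference of 0.03 had a 95% interval of -0.29 to 0.34.

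*PRMT9* encodes an arginine methyltransferase whose known substrate is a splicing factor. Its signal was 7.50, 7.27 and 7.07 in UM-Cis, against 6.46, 6.41 and 6.61 in UMSCC1, and the groups did not overlap. It was 1.73-fold higher (difference 0.79 ± 0.15, SE; adjusted p = 0.0141 with limma), and lost the call when array 1 of either line was dropped (adjusted p reaching 0.0671) or the methods' t-test was used (0.07). *PRMT1*, which encodes the main enzyme of asymmetric arginine dimethylation, was at 5.54, 5.53 and 5.68 in UM-Cis, against 5.97, 6.11 and 6.07 in UMSCC1. The groups were apart but close, at a difference of -0.47 ± 0.12 (SE; 1.38-fold lower), and the adjusted p with limma of 0.0491 was above the threshold when any 1 of the 6 arrays was left out (up to 0.175) and reached 0.723 with equal control genes. *PRMT5*, the main enzyme of symmetric dimethylation, was at -0.07 (-0.45 to 0.30), within a range of -0.45 to 0.29 over the 6 genes that did not pass.

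The other writer families of the 93 members gave no call. None of 6 KMT genes passed (range -0.38 to 0.17), and *KMT2C* and *KMT2D*, which encode the methyltransferases of enhancers, were at 0.17 (-0.72 to 1.07) and 0.01 (-0.69 to 0.72). None of 7 SETD genes passed (range -0.25 to 0.09), with *SETD2*, the writer of trimethylation over transcribed gene bodies, at 0.09 (-0.81 to 1.00). The wide intervals of *KMT2C*, *KMT2D* and *SETD2* go with a spread between the arrays that is described further on. None of 7 acetyltransferase genes passed either (range -0.34 to 0.52). *KAT2A* and *KAT2B*, catalytic subunits of SAGA and related complexes, were at 0.02 and 0.24, and *KAT5*, the catalytic subunit of the NuA4 complex, was at -0.34 (adjusted p = 0.157).

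In the DNA methylation genes all 6 differences were below 0, which for 2 of the DNMT genes depended on the scaling, and *TET1* passed. Its arrays read 4.34, 4.19 and 4.64 in UM-Cis, against 5.02, 5.30 and 5.05 in UMSCC1, and the groups did not overlap. The difference was -0.73 ± 0.16 (SE; 1.66-fold lower in UM-Cis; adjusted p = 0.0246 with limma). The UM-Cis mean was under the median of each array, and the other *TET1* probe set was at -0.23. The call was lost with the mean of both probe sets (-0.48, adjusted p = 0.0541), with the methods' t-test (0.101), when any of 4 of the 6 arrays was dropped (reaching 0.105) and with equal control genes (0.389). *TET2* was at 5.72, 5.67 and 6.04 in UM-Cis and 6.26, 6.17 and 6.42 in UMSCC1, a difference of -0.47 (adjusted p = 0.0893, or 0.031 with the array label as a replicate block).

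*DNMT1*, the maintenance methyltransferase that copies methylation after replication, was at 7.72, 8.26 and 8.42 in UM-Cis and 8.38, 8.87 and 8.97 in UMSCC1. The difference of -0.61 ± 0.23 (SE) did not pass with limma (adjusted p = 0.138) and did with the replicate block (0.0135). The array with no number was the lowest of either line, and UM-Cis was the lower under each array label. The de novo methyltransferase genes *DNMT3A* and *DNMT3B* were at -0.18 and -0.73 (adjusted p = 0.517 and 0.0834). All 4 DNMT genes had a difference below 0, but 2 of 4 did with arrays set to equal control genes, and both TET genes stayed below 0 in each of the 3 rescalings tried.

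Among readers and remodelers, 1 gene passed. *ARID5B* encodes a DNA-binding protein that partners the demethylase PHF2. It was at 5.49, 5.80 and 5.71 in UM-Cis, against 4.20, 4.47 and 4.76 in UMSCC1, with no overlap. It was 2.28-fold higher in UM-Cis (difference 1.19 ± 0.17, SE; adjusted p = 0.00479 with limma). The UMSCC1 mean, 4.48, was under the median of every array. The methods' t-test gave an adjusted p of 0.0574. *ARID1A* and *ARID1B*, which encode alternative subunits of the BAF remodeling complex, were at 0.23 (-0.35 to 0.81) and -0.25 (-0.59 to 0.08) and did not pass, nor did the other 5 ARID genes, the 7 differences running from -0.35 to 0.40.

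Of 9 CHD remodeler genes none passed. *CHD4*, the ATPase of the NuRD complex, was at 8.09, 7.88 and 8.22 in UM-Cis, against 8.35, 8.75 and 8.86 in UMSCC1. The groups did not overlap, and the difference of -0.59 ± 0.17 (SE) had an adjusted p of 0.0695 with limma, or 0.0391 with the replicate block. *CHD3*, its alternative in NuRD, was at -0.53 (adjusted p = 0.361, with the block 0.0236), and *CHD8*, a remodeler known as a regulator of beta-catenin, was at 0.48 (adjusted p = 0.148, with the block 0.0291). None of 4 measured bromodomain genes passed, their differences running from -0.36 in *BRD7* to 0.32 in *BRD8*. With the replicate block 6 members were higher (6.45%) and 7 lower (7.53%), against 9.79% and 8.4% of all genes. The 5 genes added by the block were *CHD8*, which was higher, and *DNMT1*, *CHD4*, *CHD3* and *TET2*, which were lower. Of the 18 settings described below, *CHD4* passed in 4, *CHD8* and *CHD3* in 3 each and *TET2* in 2. With equal control genes none of the 5 added genes passed (adjusted p from 0.214 to 0.772).

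Related enzymes were set against each other within each array, as the log2 ratio of paralogs, for the 14 of 22 listed pairs with both genes measured. The ratio of *EZH2* to *EZH1* was 0.03 to 0.18 on the UM-Cis arrays, against 0.98 to 1.34 on the UMSCC1 arrays, a shift of -1.08. Most of this shift is the rise of *EZH1* given above. Different probe sets have no common scale, so only the shift of a ratio between the lines is read. The 3 other pairs without overlap were *ARID1A* to *ARID1B* (shift 0.49), *KDM3A* to *KDM3B*, both Jumonji demethylases (0.48), and *KDM2A* to *KDM2B*, CpG-island binding demethylases (-0.22). In a two-sided exact permutation test over 3 against 3 arrays each of these had p = 0.10, the smallest that this design allows, and 0.3111 after Benjamini-Hochberg adjustment over the 14 pairs. Of all single genes, 30.4% did not overlap between the lines, and the share over other ratios was not computed. The ratio of *DNMT3A* to *DNMT3B* (0.56) and that of *ARID5A* to *ARID5B* (-0.79) overlapped between the lines.

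**Figure D3:**
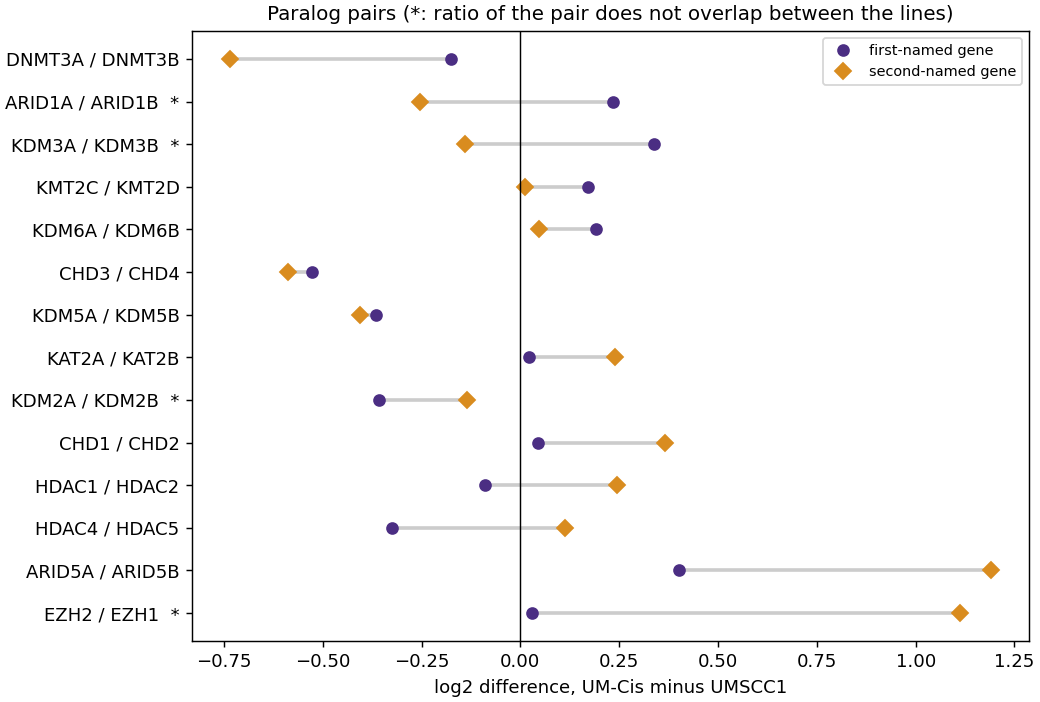
Log2 difference (x axis, UM-Cis minus UMSCC1) of both genes in each of the 14 measured paralog pairs (y axis), joined by a line, with a star at the 4 pairs whose ratio did not overlap between the lines. The longest line is that of *EZH2* at 0.03 and *EZH1* at 1.11.

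Most measured neighbours of *KDM1B* on chromosome 6 were lower in UM-Cis along with it. Their order was taken from the gene table of GRCh38.p14. Of the 3 measured genes on each side, 5 of 6 fell, namely *KIF13A*, a kinesin motor gene (-1.56, adjusted p = 0.000698 with limma), *NHLRC1*, which encodes a ubiquitin ligase (-1.37, 0.00291), *TPMT*, which encodes the thiopurine methyltransferase (-1.48, 0.000877), *DEK*, a gene of a chromatin-binding protein (-1.46, 0.00594), and *RNF144B*, another ubiquitin ligase gene (-1.44, 0.00236). The microRNA gene *MIR548A1* was at 0.55 (adjusted p = 0.227). Over the 48 neighbours of all 8 members that passed, 3 rose and 6 fell, and 5 of those 6 were beside *KDM1B*. Over all genes, 5.91% were called higher and 4.6% lower. The called neighbours not beside *KDM1B* were *PSMC3IP* (1.26), *VPS25* (1.02) and *RAMP2* (-0.85) near *EZH1*, and *HIPK2* (2.04) near *KDM7A*. The log2 signal of *TPMT* ran from 7.10 to 7.31 in UM-Cis, against 8.52 to 8.82 in UMSCC1, and that of *DEK* from 8.68 to 9.27 in UM-Cis, against 10.11 to 10.74 in UMSCC1. What these neighbours share was not tested.

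**Figure D4:**
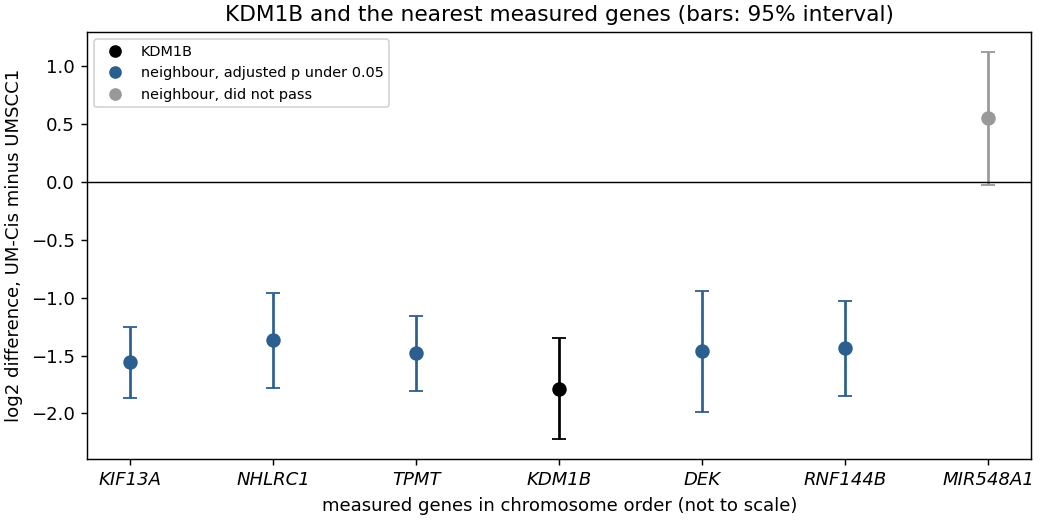
Log2 difference (UM-Cis minus UMSCC1) of *KDM1B* and of the 3 measured genes on each side of it on chromosome 6, in chromosome order and not to scale, with the 95% interval from limma as bars. *KDM1B* and 5 neighbours lie between -1.79 and -1.37, and *MIR548A1* lies above 0.

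The array with no number differed from the numbered arrays in both lines, and several chromatin genes moved with it. By at least 0.5 log2 units in each line, 8 members were lower on that array (8.6%, against 3.15% of all genes) and 1 was higher (1.08%, against 3.42%). The 8 were *ARID4B*, *CHD3*, *CHD7*, *DNMT1*, *KAT6B*, *KMT2C*, *KMT2D* and *SETD2*, and the 1 was *HDAC3*. *SETD2* was at 6.28, 7.18 and 7.43 in UM-Cis and 6.06, 7.28 and 7.28 in UMSCC1. *KMT2C* was at 6.81, 7.80 and 8.24 in UM-Cis and 6.81, 7.66 and 7.87 in UMSCC1, and *ARID4B*, which encodes a subunit of the SIN3 corepressor, at 6.01, 7.14 and 7.23 in UM-Cis and 6.18, 7.50 and 7.74 in UMSCC1. In these 3 genes the array with no number was the lowest of each line, at differences from the mean of arrays 1 and 2 between -1.44 (*ARID4B* in UMSCC1) and -0.95 (*KMT2C* in UMSCC1). Across the 93 members this difference in UM-Cis and that in UMSCC1 had a Pearson r of 0.796, and across all genes of 0.505, as a description over genes that share the same arrays. None of the 9 genes passed the comparison of the lines without a block, and *DNMT1* and *CHD3* passed with the array label as a block, as given above. What sets the arrays with no number apart was not tested.

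**Figure D5:**
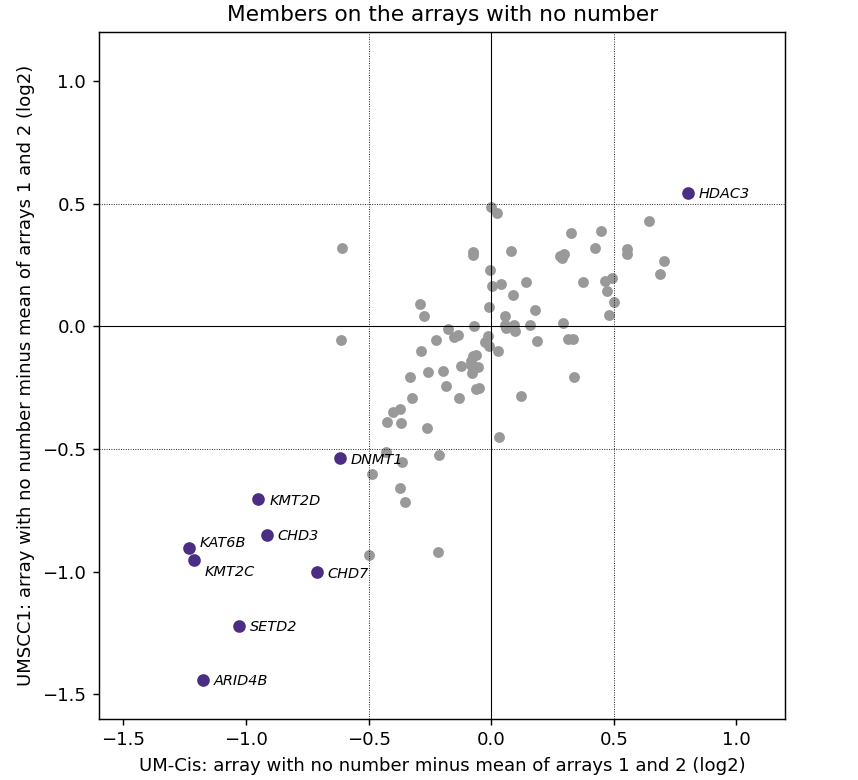
Log2 difference of the array with no number from the mean of arrays 1 and 2, in UM-Cis (x axis) and in UMSCC1 (y axis), for the 93 members as points, with dotted lines at 0.5 log2 units. The 8 named members at the lower left were lower on that array in both lines, and *HDAC3* was higher in both.

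Chromatin genes under other names gave the partners of these enzymes. Lists of them were written from general knowledge with earlier results of these data known. Counts below are of measured genes, and not all listed chromatin genes were measured. The Polycomb list had 23 of 31 measured, the corepressor list 20 of 36, and the list of INO80, SRCAP, ISWI and other remodelers 26 of 38. Of 23 Polycomb subunits beside *EZH1* and *EZH2*, 3 rose, 1 fell and 19 did not pass, against 5.91% higher and 4.6% lower over all genes, a background that holds for the lists below too. The median difference was 0.24, against -0.04 over all genes. *CBX6*, a chromodomain subunit of PRC1, rose by 2.29 (4.89-fold, 8.91 ± 0.33 in UM-Cis and 6.62 ± 0.14 in UMSCC1, SD, n = 3 each; adjusted p = 0.000624 with limma). *PCGF2*, a ring-finger partner in PRC1, rose by 1.08, and *MTF2*, an accessory subunit of PRC2, by 0.81, while *AEBP2*, another accessory subunit of PRC2, fell by 0.69 (adjusted p = 0.00236, 0.0199 and 0.0218).

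Of 23 histone methyltransferase genes under other names, 1 rose and 3 fell, with a median of -0.14. *DPY30*, a shared subunit of the COMPASS complexes, rose by 0.71 (adjusted p = 0.0205 with limma). *SUV39H1* (-0.82) and *EHMT2* (-0.60), whose products write repressive histone H3 methylation, and *CARM1* (-0.73), an arginine methyltransferase gene and coactivator, fell (adjusted p = 0.005, 0.0356 and 0.00828). Of 22 acetyltransferase genes and subunits 2 rose, *TADA2A* (1.34, adjusted p = 0.0421) and *TADA2B* (0.66, 0.0191), alternative adaptor subunits of the ATAC and SAGA complexes, and none fell, with a median of 0.26. None of 7 further demethylase genes passed without a block.

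Of 20 subunits of deacetylase corepressors 2 rose and 2 fell. *RCOR1* (-0.52, adjusted p = 0.0285 with limma) and *RCOR2* (-0.65, 0.0194), scaffolds that hold KDM1A and class I deacetylases together, fell. *PHF21A*, a reader subunit of the same complex, rose by 1.28 (0.0381), and *MIER1*, another scaffold, by 0.52 (0.0474). Among 10 readers and partners of DNA methylation, *ZBTB38* (1.00) and *MBD1* (0.55), which bind methylated DNA, rose, and *UHRF1* (-0.68), which brings DNMT1 to newly copied DNA, fell (adjusted p = 0.0409, 0.028 and 0.0314). Of 12 BAF and PBAF subunits under other names *ACTL6A* (-0.62) and *BCL11A* (-0.66) fell, and of 26 remodelers of the INO80, SRCAP, ISWI and other families *ACTR5*, an INO80 subunit, fell (-0.99; adjusted p = 0.015, 0.0258 and 0.0441).

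Of 20 proliferation genes 6 fell, none rose and 14 did not pass, against 4.6% lower and 5.91% higher over all genes. The median was -0.47, and 6 of the 20 differences lay above 0. Among those that fell were the mitotic kinase genes *AURKB* (-1.51) and *PLK1* (-1.15) and the cyclin genes *CCNA2* (-1.24) and *CCNB1* (-0.84; adjusted p = 0.0011, 0.0179, 0.00256 and 0.0184 with limma). Their part in the lower signals of *DNMT1*, *UHRF1* or other chromatin genes was not tested. Of 6 measured control genes none passed, and their median was -0.30. With the array label as a block *HPRT1*, 1 of them, passed as lower (-0.53, adjusted p = 0.0251), the lower proliferation genes became 9, and the further demethylase gene *PHF8* passed (-0.50, 0.0375). The block gave 1 more increase each among the Polycomb and acetyltransferase genes, 2 more decreases among the methyltransferase genes and 1 more among the corepressor subunits. With arrays set to equal control genes 2 of the 6 proliferation calls, *AURKB* and *CCNA2*, were kept, and 4 were lost, *PLK1* (0.124) and *CCNB1* (0.246) among them. *KRT5* kept its call (0.0186). Every decrease named above in the lists of chromatin genes lost the call (adjusted p from 0.0861 to 0.634), as did the increases of *TADA2B*, *MIER1* and *MBD1*. This scaling also raised the SE, from 0.12 to 0.26 in *PRMT1* and from 0.12 to 0.25 in *HDAC9*. The difference of *TADA2B* grew to 0.90 under it while the call was lost (adjusted p = 0.0677 with limma). A lost call is therefore not by itself a removed difference. *CBX6*, *PCGF2*, *SUV39H1* and *CARM1* passed whichever of the 6 arrays was dropped, and the other chromatin genes called in these lists lost the call in 3 to 6 of those fits (adjusted p reaching 0.161).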

How the data were processed

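Affymetrix Human Gene 2.0 ST arrays were hybridized with RNA of UM-Cis and UMSCC1 (3 each), and the deposited values are log2 signals of 44629 probe sets that the authors had already normalized between arrays. RMA is named in the submitters' processing notes and quantile normalization in the methods of the study. Its version, as that of the annotation, was not given in the sources used here. Probe sets were named through the platform annotation (15835 with exactly 1 symbol, the other 28794 left unnamed here), and the brightest one was kept for each of 14812 genes, of which 651 had several. All genes were fitted by lmFit and eBayes of limma 3.58.1 under R 4.3.3, two-sided and without a block, and p-values were adjusted by Benjamini-Hochberg over all of them at a threshold of 0.05. The limma fit without a block was tested on simulated data. Their noise was independent between arrays, unlike the deviations shared by array label that are given below. Figures were drawn with matplotlib 3.10.9. Sequences are those of RefSeq (GRCh38.p14), in which 83 of the 93 members had a start.

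The members and the gene lists were chosen with earlier results of these data known. Named by rule were the members past the threshold without overlap of the groups, 34 listed anchors where measured (28), the paralog pairs, and from each list the 4 lowest in adjusted p. Named after their values were seen were *KDM4D*, *CHD8*, *BRD7*, *BRD8*, *ARID4B*, *CHD7*, *KAT6B*, *KDM4E*, *PRMT8*, *SIRT4*, *HDAC8*, *SIRT7*, *DCN*, *LUM*, *VIM* and the neighbours of the members that passed. Deviations from the group means of arrays with the same label had correlations of 0.505 for the unnumbered pair, 0.237 for the arrays 1 and 0.357 for the arrays 2, and the labels were used as pairs. Numbered arrays of unlike labels reached 0.265 and 0.233, so arrays 1 and 2 are hardly told apart by this check. This pairing comes from the data, chiefly from the unnumbered pair, and no source states a shared day. Alternatives were the methods' t-test, another prior, the replicate block, the arrays with no number as a batch or left out, each array left out, 3 rescalings (quantile, cyclic loess, equal control genes), brighter probe sets only, every probe set, their mean per gene, and other thresholds.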

Additional observations from a re-analysis of the deposited data

How the results depend on the processing

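*KDM1B*, *EZH1* and *HDAC9* passed in 18 of 18 settings, and no member that passed changed sign in any of them. The count of higher members, 5, was 2 with the methods' t-test, 8 with the arrays with no number as a batch and 4 to 6 without 1 array. The count of lower members, 3, was 5 with the methods' t-test, 7 with the replicate block, 11 with the batch term, 9 with the numbered arrays alone, 1 with equal control genes, 1 with all probe sets in the adjustment, 1 at an adjusted p under 0.01, 7 at an adjusted p under 0.10, and 1 to 3 without 1 array, the 1 being reached without array 1 or array 2 of UMSCC1. At least 2-fold, 5 members changed in every setting but equal control genes, which gave 6. With the replicate block the lower members were 7.53%, against 8.4% of all genes. Member counts in the other settings are to be read beside the counts over all genes that follow. For the other thresholds, and for the 2-fold counts outside the main setting, no count over all genes was made. Over all genes, 876 higher and 681 lower calls were 1450 and 1244 with the replicate block, 1731 and 1528 with the batch term, 1387 and 1301 with the numbered arrays alone, 322 and 248 with the methods' t-test, 560 and 415 with all probe sets, 787 and 166 with equal control genes, and 433 to 848 and 324 to 738 without 1 array. The causes were not tested. With 3 arrays a line, the median SE of a member's difference was 0.16.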
